A study of Mus musculus with 6 samples.

Results

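The S100 genes encode small calcium-binding proteins built around a pair of EF-hand loops, and most of them act as dimers that change shape when they bind calcium and then grip a target protein. Inside the cell they act on annexins, the cytoskeleton and calcium handling, and some are released and act on receptors of the innate immune system. In myeloid cells the family is best known for S100A8 and S100A9, the subunits of calprotectin, which fill neutrophils and freshly recruited monocytes and are scarce in many resident macrophages. The 8 genes described here, S100a1, S100a4, S100a6, S100a8, S100a9, S100a10, S100a11 and S100a13, were taken by symbol from the 50600 genes of the count table, and each matched 1 entry.

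Macrophages of mouse pancreatic islets were compared with macrophages of epididymal white adipose tissue, the visceral fat beside the testis. Both came from untreated C57BL/6J males, 12 weeks old and fed chow, and both were sorted as live cells carrying CD45, F4/80 and CD64. Each tissue gave 3 libraries, which carry the numbers 2, 4 and 6 and were made from 10 ng of total RNA each. The sources used here do not give how many animals went into a library. Nothing states that the libraries came from separate animals, so p-values measure only the spread between these libraries, which may be technical.

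Library totals lay between 4089980 and 9235591 counts. The listed macrophage markers, led by Lyz2, Csf1r and Adgre1, summed to 5561 to 7382 CPM (counts scaled to a common library size, after adjustment by the trimmed mean of M values, TMM) in islet and 7057 to 8775 CPM in fat libraries, with 10 of 10 detected in both tissues. Islet libraries 2 and 4 stood apart from islet library 6 in heat shock RNA, since the 8 heat shock genes listed, with the smallest adjusted p in Hsph1, Hspa1b, Hsp90aa1 and Hspa1a, took 9.55%, 10.4% and 0.812% of counts in islet libraries 2, 4 and 6 and 0.260% to 0.292% in the fat libraries. Islet hormone and granule genes (8 listed, led by Ins2, Ins1 and Gcg) took 0.369% to 0.783% of counts in islet and at most 0.000631% in fat libraries.

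All 8 members lie on mouse chromosome 3, in GRCm38, in 2 blocks. The first block holds 6 of them over 184.7 kb, in the order S100a1, S100a13, S100a4, S100a6, S100a8 and S100a9. The second, 2.82 Mb further on, holds S100a11 and S100a10, with 28.8 kb between them. S100a1 and S100a13 point away from each other with 42 bases between the annotated genes. Promoter windows from 250 bases before to 50 bases after the start were found for 7 of the 8 members in RefSeq (GRCm38.p6), all but S100a10. They are shown for the member with the largest difference between tissues (S100a6), for 1 member whose difference did not pass (S100a11), for 1 barely detected member (S100a4), and for the stretch that the windows of S100a1 and S100a13 share. Capitals mark matches on either strand to 4 motifs, the TATA box spelled as TATAAA, the AP-1 motif as TGANTCA, the GC box as GGGCGG and the PU.1 motif as GAGGAAG.
S100a6, chr3:90612644-90612943, plus strand: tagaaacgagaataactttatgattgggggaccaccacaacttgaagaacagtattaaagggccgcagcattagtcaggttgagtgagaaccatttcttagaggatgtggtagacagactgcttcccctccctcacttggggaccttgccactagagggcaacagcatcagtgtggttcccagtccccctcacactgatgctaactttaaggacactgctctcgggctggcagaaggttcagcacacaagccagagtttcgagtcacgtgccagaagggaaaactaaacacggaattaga
S100a11, chr3:93520246-93520545, plus strand: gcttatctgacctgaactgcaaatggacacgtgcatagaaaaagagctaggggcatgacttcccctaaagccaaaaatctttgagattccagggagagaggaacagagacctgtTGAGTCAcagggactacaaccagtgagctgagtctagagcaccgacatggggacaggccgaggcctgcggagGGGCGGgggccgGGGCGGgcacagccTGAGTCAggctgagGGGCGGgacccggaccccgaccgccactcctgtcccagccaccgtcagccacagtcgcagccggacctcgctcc
S100a4, chr3:90603520-90603819, plus strand: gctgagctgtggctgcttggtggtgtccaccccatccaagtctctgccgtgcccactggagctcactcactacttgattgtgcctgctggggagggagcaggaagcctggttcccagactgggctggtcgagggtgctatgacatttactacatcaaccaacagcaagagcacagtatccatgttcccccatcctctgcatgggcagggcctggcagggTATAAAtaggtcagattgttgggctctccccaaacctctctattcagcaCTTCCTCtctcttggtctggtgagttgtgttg
S100a1 and S100a13, chr3:90514281-90514484, plus strand: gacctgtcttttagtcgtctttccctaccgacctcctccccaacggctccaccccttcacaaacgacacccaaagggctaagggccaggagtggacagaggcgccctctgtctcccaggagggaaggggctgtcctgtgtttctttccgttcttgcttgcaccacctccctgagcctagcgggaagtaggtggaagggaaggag
The S100a6 window and the 204 shared bases held none of the 4 motifs. The S100a11 window held 2 AP-1 and 3 GC box matches. TATAAA was present in the windows of S100a4, S100a8 and S100a9, the 3 least abundant members, and absent from the other 4 windows searched. Over all 32851 windows of this length, 13.6% held the TATA box spelling, 7.8% that of AP-1, 35.7% that of the GC box and 13.6% that of PU.1, on either strand. A match describes the letters of a window and does not show a bound site.

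The S100 genes tested were lower in islet macrophages or did not differ detectably. S100a6, S100a10 and S100a13 fell, by 43.4-fold, 15.9-fold and 3.67-fold in the fitted values. S100a1 and S100a11 did not pass the test. S100a4, S100a8 and S100a9 had at most 14 counts in any library and did not pass the filter on low counts, so they were not tested. Thus 3 of the 5 members tested were called lower in islet and 0 were called higher (quasi-likelihood test of edgeR, p under 0.05 after Benjamini-Hochberg adjustment). Over all 12152 genes tested, 10.5% were called lower, 8.97% higher and 19.4% in either direction. All 5 fitted differences were negative, so 0 were higher at an unadjusted p under 0.05, and 0 were called higher in DESeq2 or limma voom. S100a6 passed the filter only through its fat counts, so the filter itself favoured a difference in that gene. The median log2 difference was -1.88 over the 5 tested members and 0.01 over all genes tested. In bulk libraries such as these, fewer cells that carry a transcript and less of it per cell cannot be told apart.

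**Figure D1:**
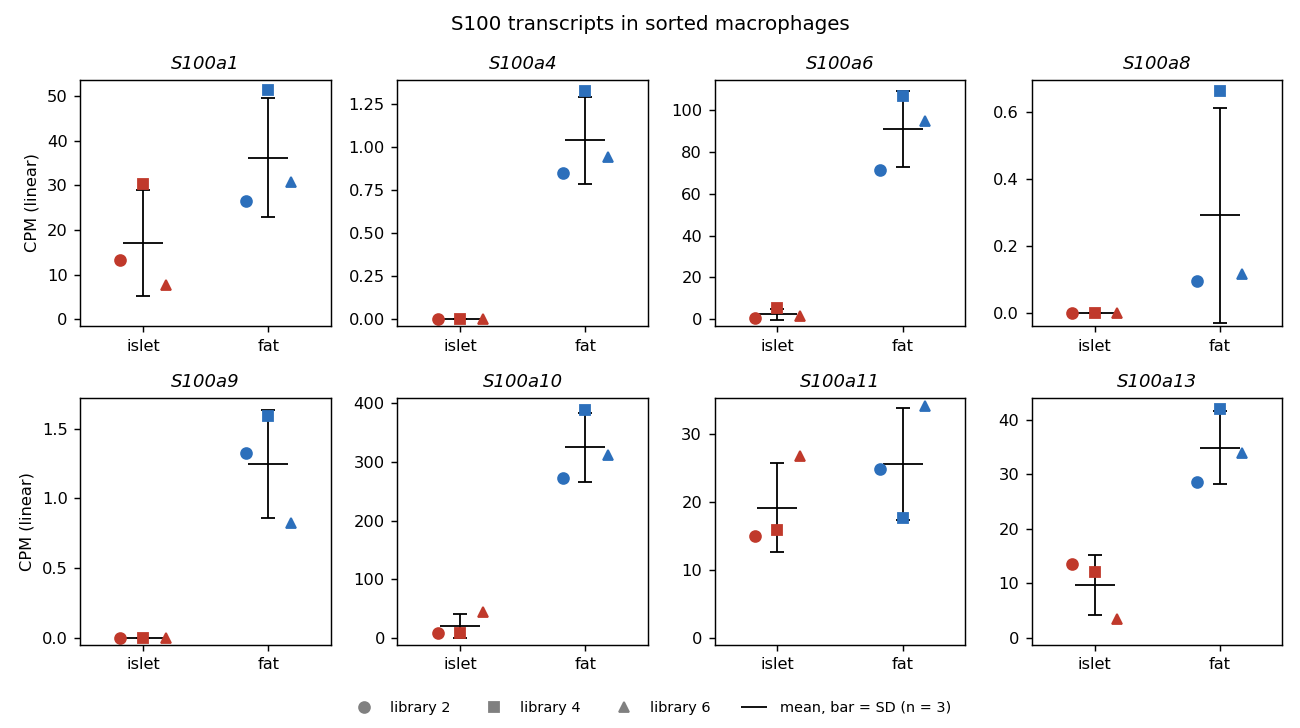
CPM of each S100 member (linear axis, separate scale per gene) in the 3 islet and 3 fat libraries, with a symbol per library number and the mean and SD (n = 3). S100a6, S100a10 and S100a13 lay lower in all 3 islet libraries than in any fat library, S100a1 and S100a11 overlapped, and S100a4, S100a8 and S100a9 had no islet counts.

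**Figure D2:**
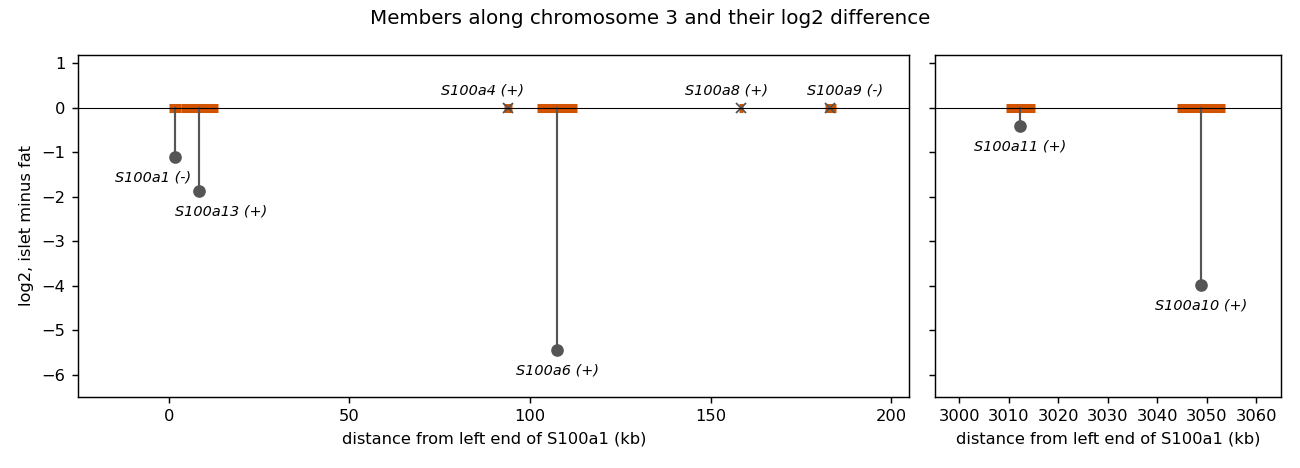
Positions of the 8 members (orange bars, kb from the left end of S100a1, strand in brackets) and their fitted log2 difference, islet minus fat (grey points). Crosses on the zero line mark the 3 members that were not tested, not a difference of 0; S100a1 and S100a11 lay closer to 0 than their neighbours S100a13 and S100a10.

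S100a10 (ENSMUSG00000041959.14, chromosome 3, 93555080 to 93564643) encodes p11, which has lost calcium binding and pairs with annexin A2 to carry proteins to the plasma membrane. It stood at 273, 389 and 313 CPM in fat libraries 2, 4 and 6, with islet libraries 2, 4 and 6 at 8.06, 8.60 and 43.5 CPM. The tissues did not overlap, and islet library 6 stood above the other islet libraries. The log2 difference was -3.99 ± 0.66 (SE, n = 3 per tissue, 95% interval -5.48 to -2.50), with an edgeR adjusted p = 0.00376. Its size rested on which islet libraries were used, at -5.29 without islet library 6 and -2.98 without islet libraries 2 and 4, and it passed in both (edgeR adjusted p = 4.28e-06 and 1.09e-06). With islet libraries 2 and 4 left out, the spread comes from the fat libraries alone and is assumed to hold for the 1 islet library left.

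S100a11 (ENSMUSG00000027907.4, chromosome 3, 93520488 to 93526287), the neighbour of S100a10, encodes a partner of annexin A1 that takes part in membrane repair. It stood at 24.8, 17.6 and 34.1 CPM in fat libraries 2, 4 and 6, with islet libraries 2, 4 and 6 at 14.9, 15.8 and 26.7 CPM. The ranges overlapped, and the log2 difference of -0.41 ± 0.37 (SE) did not pass (edgeR adjusted p = 0.492). Its 95% interval ran from -1.24 to 0.42, which still allows a fall of more than 2-fold. The related entry S100a11-ps had 0 counts in all libraries together. The ratio of S100a10 to S100a11, from CPM per kb of exon, was 4.65, 9.30 and 3.86 in fat libraries 2, 4 and 6 and 0.228, 0.230 and 0.688 in islet libraries 2, 4 and 6. S100a10 was thus the more abundant of these neighbours per length in every fat library and the less abundant in every islet library. In islet library 6 this order rested on the exon lengths used, since in CPM S100a10 stood above S100a11 there (43.5 against 26.7). An exact two-sided permutation test of this ratio gave p = 0.1, the smallest that 3 against 3 libraries allow (0.15 after Benjamini-Hochberg adjustment over 6 ratios).

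S100a6 (ENSMUSG00000001025.8, chromosome 3, 90612882 to 90624181) encodes calcyclin, which binds the ubiquitin ligase adaptor CacyBP and several annexins. It stood at 71.4, 107 and 94.6 CPM in fat libraries 2, 4 and 6. In islet libraries 2, 4 and 6 it stood at 0.403, 5.16 and 1.35 CPM, from 2, 18 and 10 counts. Every islet library lay more than 10-fold below every fat library. The log2 difference was -5.44 ± 0.67 (SE, 95% interval -6.95 to -3.93), with an edgeR adjusted p = 0.000968. Without islet library 4, which held most of the islet counts, it was -6.58 (edgeR adjusted p = 0.000197). Summed over libraries, 2365 fat and 30 islet counts put fat 47.0 times above islet, and the 95% interval from counting alone ran from 32.8 to 69.8. Such intervals, and the floors used further on, leave out all but counting error, and reads with no molecular identifiers are not independent molecules.

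S100a4 (ENSMUSG00000001020.8, chromosome 3, 90603771 to 90606045), which lies 6.84 kb from S100a6 and encodes a regulator of non-muscle myosin, was barely detected. It had 9, 10 and 8 counts in fat libraries 2, 4 and 6 (0.851, 1.33 and 0.941 CPM) and 0 in every islet library. With a floor of 3 counts per library, at 0.605, 0.860 and 0.404 CPM in islet libraries 2, 4 and 6, it was at least 1.67-fold lower in islet. The floor of islet library 4 lay above the level of fat library 2, so a level like that of fat library 2 was not detectable there. In the GENCODE M21 annotation 51.7% of S100a4's exonic bases also belong to Gm42674 on the same strand, which had 0 counts in all libraries together. The sources used here do not give how reads in shared exons were counted, so the low S100a4 counts are uncertain as a level.

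S100a13 (ENSMUSG00000042312.9, chromosome 3, 90514435 to 90524581) encodes a protein of the export complexes for FGF1 and interleukin 1 alpha, which lack a secretion signal. It stood at 28.7, 42.1 and 34.0 CPM in fat libraries 2, 4 and 6, with islet libraries 2, 4 and 6 at 13.5, 12.0 and 3.37 CPM. The tissues did not overlap, and islet library 6 was the lowest. The log2 difference was -1.88 ± 0.49 (SE, 95% interval -2.99 to -0.77), with an edgeR adjusted p = 0.0280. The call rested on all 3 fat libraries, with an edgeR adjusted p = 0.0751, 0.10 and 0.0855 without fat library 2, 4 or 6 and differences of -2.01, -1.79 and -1.90. Calls lower in islet became fewer over all genes too, from 10.5% to 4.71%, 5.39% and 5.96% in these 3 fits. Without islet libraries 2 and 4 the difference was -3.44.

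S100a1 (ENSMUSG00000044080.9, chromosome 3, 90511034 to 90514392), best known from muscle, where it tunes calcium release, is the head-to-head neighbour of S100a13. It stood at 26.4, 51.3 and 30.7 CPM in fat libraries 2, 4 and 6, with islet libraries 2, 4 and 6 at 13.3, 30.4 and 7.68 CPM. Islet library 4 lay between fat libraries 2 and 6, and library 4 was the highest of its tissue in both. The log2 difference of -1.10 ± 0.50 (SE, 95% interval -2.24 to 0.05) did not pass (edgeR adjusted p = 0.170). With the tissues paired through a replicate block it passed (log2 -1.24, edgeR adjusted p = 0.0491), as it did without islet library 4 (-1.80, 0.0212). Without islet libraries 2 and 4 the difference was -2.31. It passed with no filter on low counts as well (-1.15, edgeR adjusted p = 0.0202). That fit gave S100a10 an SE of 0.37, against 0.66 in the main fit, and an edgeR adjusted p = 3.18e-26. Such a value is too small for 3 against 3 libraries, so p-values of that fit are not relied on. The ratio of S100a1 to S100a13 per length was 0.949, 1.26 and 0.930 in fat libraries 2, 4 and 6 and 1.02, 2.60 and 2.35 in islet libraries 2, 4 and 6. These ranges overlapped (exact two-sided permutation p = 0.2, 0.24 after adjustment over the 6 ratios). Within the numbered pairs the ratio was higher in islet in 3 of 3, for which an exact sign-flip permutation test, added after seeing the data, gave p = 0.25, the smallest that 3 pairs allow.

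S100a8 (ENSMUSG00000056054.9, chromosome 3, 90668978 to 90670035) and S100a9 (ENSMUSG00000056071.12, chromosome 3, 90692632 to 90695721), the subunits of calprotectin, were near absent. S100a9 had 14, 12 and 7 counts in fat libraries 2, 4 and 6 (1.32, 1.59 and 0.823 CPM) and 0 in every islet library. By the means over libraries it was at least 2.00-fold lower in islet at the floor of 3 counts per library. The floor of islet library 4, 0.860 CPM, lay above the level of fat library 6, so a level like that was not detectable there. S100a8 had 1, 5 and 1 counts in the fat libraries and 0 in islet, and its mean in fat lay under the floor of every islet library, so no fold is given. For S100a4, S100a8 and S100a9 the exact two-sided permutation test over the 6 libraries gave p = 0.1, its minimum. In an edgeR fit without a filter, whose p-values are not relied on, they did not pass (adjusted p = 0.0978, 0.337 and 0.0672). Of the 16 neutrophil markers listed, Ly6g, Elane, Ngp and Stfa2l1 had 0 counts in every library. The whole list summed to 53.0 to 107 CPM in islet and 239 to 331 CPM in fat libraries, and most of the fat sum was Mmp9 (190 to 298 CPM in fat, at most 0.573 CPM in islet). Without Mmp9, left out after the values were seen, the other 15 summed to 52.5 to 107 CPM in islet and 32.4 to 48.9 CPM in fat libraries. Of the next most abundant, Csf3r was higher in islet (log2 1.04 ± 0.30, edgeR adjusted p = 0.0419), and Il1r2 had a log2 difference of 3.46 ± 1.08 and did not pass (edgeR adjusted p = 0.0556). Of the 4 neutrophil markers tested, 1 was called higher in islet, 2 were called lower and 1 did not pass. Their median log2 difference was -3.64. Mmp9 passed the filter only through its fat counts, so the filter itself favoured a difference in that gene. Among all genes tested, 8.97% were called higher and 10.5% lower. Ly6c2, a defining marker of classical monocytes, was at 0 in islet. The 8 monocyte markers listed, of which Ace and Treml4 mark nonclassical rather than classical monocytes, summed to 52.4 to 141 CPM in islet. They summed to 247 to 381 CPM in fat libraries, mostly Ccr2, followed by Ace and Vcan. Of the 4 tested, 3 were called lower in islet, 0 higher and 1 did not pass. The part of neutrophils and monocytes in the S100 values was not tested.

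Markers of other cell types of the tissues also differed. All 9 fibroblast markers, led by Col3a1, Dcn and Col1a2, were detected in fat and summed to 391, 326 and 92.7 CPM in fat libraries 2, 4 and 6, against 0.605 to 2.58 CPM in islet, where 7 of the 9 were at 0. Adipocyte markers (7 listed, led by Car3, Lipe and Cidec) summed to 133, 158 and 59.5 CPM in fat libraries 2, 4 and 6 and 10.8 to 27.6 CPM in islet, where all but Lipe were at 0. Endothelial markers (5 listed, led by Cdh5, Pecam1 and Kdr) summed to 138, 63.6 and 23.5 CPM in fat libraries 2, 4 and 6 and 7.45 to 19.8 CPM in islet libraries, with Tek at 0 in islet. Mesothelial markers (7 listed, led by Upk3b, Msln and Lrrn4) summed to 21.4, 8.49 and 3.06 CPM in fat libraries 2, 4 and 6 and at most 2.56 CPM in islet libraries, with 5 of the 7 at 0 in islet. Fat library 6 had the least of all 4 lists. S100a1, S100a6, S100a10 and S100a13 were lowest in fat library 2 and highest in fat library 4, and S100a11 was lowest in fat library 4 and highest in fat library 6. Dendritic cell markers (8 listed, led by Cd209a, Dpp4 and Zbtb46) summed to 22.8 to 46.4 CPM in islet and 96.2 to 114 CPM in fat, with Cd226 at 0 in islet. The median over the 7 tested genes of this list had the other sign (log2 0.78). Of these 7, 1 was higher in islet (Dpp4), 3 were lower (Cd209a, Zbtb46 and Cd226) and 3 did not pass. Cd226 passed the filter only through its fat counts, so its call was favoured by the filter. The shares of all genes tested were 8.97% higher and 10.5% lower. Lymphocyte markers (8 listed, led by Cd3e, Trbc2 and Ms4a1) reached at most 5.18 CPM, and acinar markers (9 listed, led by Ctrb1, Pnlip and Cela1) 88.3 CPM in islet library 4. The part of these cells in the S100 values was not tested.

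Between genes, levels were compared as CPM per kb of exon, using the union of annotated exons. In fat macrophages S100a10 led with 268 ± 48.6 (SD, n = 3), above S100a6 at 66.5 ± 13.2, and their ranges did not overlap. S100a1, S100a11 and S100a13 followed at 52.1 ± 19.2, 49.9 ± 16.2 and 48.8 ± 9.44, and neighbours in this order, S100a6 included, overlapped. S100a9, S100a4 and S100a8 closed the order at 2.39 ± 0.747, 1.78 ± 0.433 and 0.421 ± 0.464. In islet macrophages S100a11 stood at 37.4 ± 12.8, S100a1 at 24.7 ± 17.0, S100a10 at 16.6 ± 16.8 and S100a13 at 13.5 ± 7.66, each overlapping the next, and S100a6 at 1.69 ± 1.84 lay below them without overlap. S100a10 made up 52.7% to 56.1% of the summed level of the 8 genes per length in fat libraries, and 8.97%, 6.93% and 34.2% in islet libraries 2, 4 and 6. S100a11 made up 6.03% to 13.7% in fat and 30.1% to 49.8% in islet libraries. The summed level was 409 to 573 in fat and 74.2 to 105 in islet libraries.

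**Figure D3:**
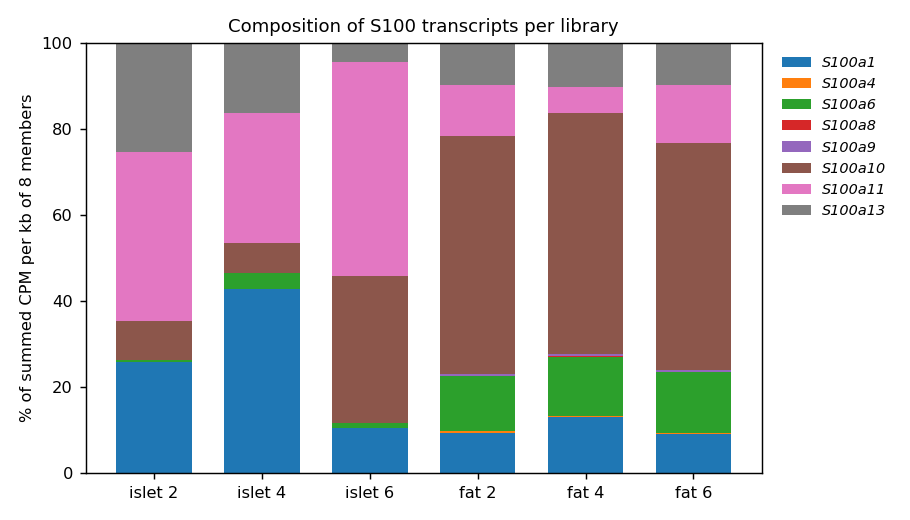
Share of each member in the summed CPM per kb of exon of the 8 S100 genes (percent, stacked bars) in each library. S100a10 held 52.7% to 56.1% in the fat libraries, while S100a11 and S100a1 held most of the islet libraries 2 and 4 and S100a11 and S100a10 most of islet library 6.

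The other 9 S100 genes of the table added almost nothing. S100a2, S100a3, S100a5, S100a7a, S100a14 and S100g had 0 counts in all 6 libraries. S100a16 stood at 1.80 and 0.796 CPM in fat libraries 2 and 4, S100b at 0.284 CPM in fat library 2, and S100z at 0.202 and 3.15 CPM in islet libraries 2 and 4, with 0 elsewhere. None of the 9 entered the test.

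Among genes of S100 partners and receptors, calls were found in both directions. Of 26 listed, 23 were tested, and 3 of them rose in islet macrophages while 5 fell and 15 missed the threshold, with a median log2 difference of 0.06 beside 0.01 over all genes. Over all genes tested, 8.97% rose and 10.5% fell. Of the 5 annexin genes listed, 2 fell and 3 did not pass, and of those 3 Anxa5 (log2 0.64 ± 0.29, edgeR adjusted p = 0.164) and Anxa11 (log2 0.85 ± 0.46, 0.242), looked up after the values were seen, had differences above 0. Anxa6, a membrane-binding annexin, fell by 1.87 ± 0.24 (log2, SE), and Anxa1, the partner of S100A11 and a mediator of the resolution of inflammation, fell by 2.78 ± 0.64 (edgeR adjusted p = 0.00116 and 0.0168). Ahnak, a giant scaffold bound by the p11 and annexin A2 complex, fell from 6070 ± 1288 CPM in fat (SD, n = 3) to 106, 30.7 and 895 CPM in islet libraries 2, 4 and 6 (log2 -4.14 ± 1.09, edgeR adjusted p = 0.0291). Cd36, a scavenger receptor that also binds S100A8 and S100A9 with fatty acid, fell by 1.93 ± 0.32 (edgeR adjusted p = 0.00349). Emb, which encodes embigin, fell by 1.33 ± 0.39 (edgeR adjusted p = 0.0432) and is named though it lies outside the rule for named genes. Only 2 of these 5 falls were called without islet library 2 or without fat library 2, 4 or 6, where Anxa1 (edgeR adjusted p = 0.0528 to 0.0600), Ahnak (0.0691 to 0.0937) and Emb (0.0828 to 0.169) missed the threshold. Emb missed it with the replicate block too (edgeR adjusted p = 0.0682).

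Of the partner genes that rose, Il1a, whose product leaves cells with S100A13, stood between 4.11 and 9.55 CPM in fat and reached 171, 102 and 99.6 CPM in islet libraries 2, 4 and 6 (log2 4.18 ± 0.40, edgeR adjusted p = 0.000274), the opposite direction to S100a13. Plau, the urokinase gene, rose by 3.15 ± 0.43 and Cacybp, the partner of S100A6, by 2.64 ± 0.48 (log2, SE, edgeR adjusted p = 0.00151 and 0.00593). Across islet libraries 2, 4 and 6, Cacybp measured 355, 190 and 83.8 CPM, and without islet libraries 2 and 4 its difference was 1.24. Without those libraries 10 partner genes rose and 8 fell, while calls over all genes rose to 14.4% higher and 20.4% lower. Tlr4, the receptor for S100A8 and S100A9, had a log2 difference of -0.08 ± 0.22 and did not pass (edgeR adjusted p = 0.831). Antisense or other entries overlap 9.9% of the exonic bases of Emb and 11.2% of those of Il1a, so their levels carry that uncertainty. Ager, which encodes RAGE, had no islet counts and stood at 0.378 to 0.531 CPM in fat.

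**Figure D4:**
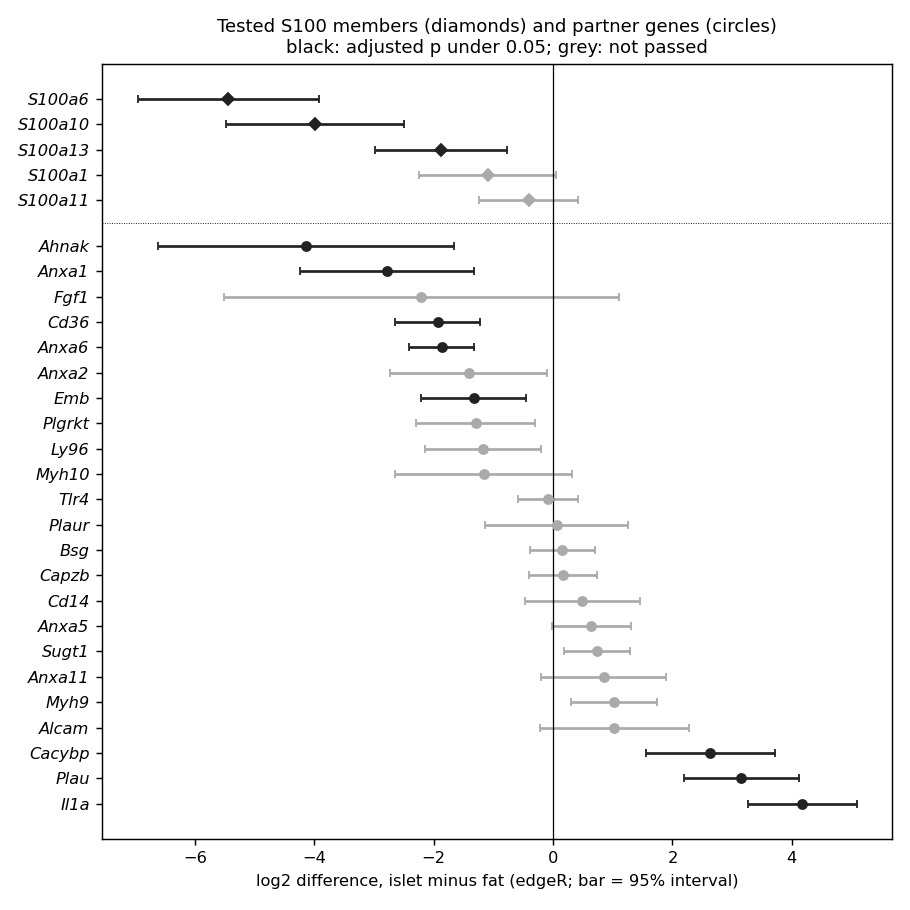
Fitted log2 difference, islet minus fat, with 95% interval (horizontal bars) for the 5 tested S100 members (diamonds) and the 23 tested partner and receptor genes (circles), black where the adjusted p was under 0.05 and grey otherwise. All 5 members lay below 0, while 3 partner genes passed above 0 and 5 below.

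Anxa2, the binding partner of S100A10, was taken up after its values were seen. It stood at 132, 150 and 236 CPM in fat libraries 2, 4 and 6, with islet libraries 2, 4 and 6 at 25.6, 35.0 and 132 CPM, so islet library 6 reached the level of fat library 2. The log2 difference of -1.42 ± 0.58 (SE) did not pass (edgeR adjusted p = 0.127), but it passed with the replicate block (0.00925) and without islet library 6 (0.000455, at -2.52). It passed with no filter too (1.06e-04), in the fit whose p-values are not relied on. An antisense entry overlaps 2.6% of the exonic bases of Anxa2. The ratio of S100a10 to Anxa2 per length was 6.39, 8.01 and 4.09 in fat libraries 2, 4 and 6 and 0.970, 0.757 and 1.02 in islet libraries 2, 4 and 6. S100a10 RNA per length was thus above Anxa2 RNA in every fat library and about level with it in the islet libraries (exact two-sided permutation p = 0.1, its minimum, 0.15 after adjustment over the 6 ratios). Protein levels were not measured here. S100a10, Anxa2, Ahnak, Anxa1 and S100a11 were each highest in islet library 6 among the islet libraries. That library also held the least heat shock RNA, and the part of this in the values was not tested. Anxa1 without islet library 6 had a difference of -4.14, and Ahnak -6.47.

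**Figure D5:**
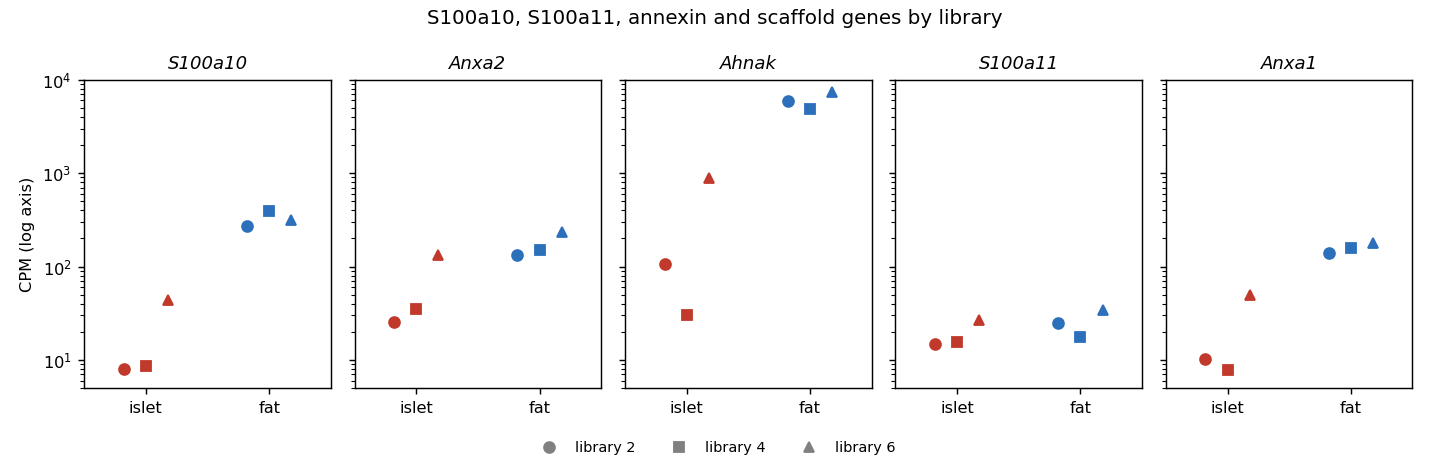
CPM (log axis, shared by the panels) of S100a10, Anxa2, Ahnak, S100a11 and Anxa1 in each library, islet in red and fat in blue. Islet library 6 was the highest islet library for all 5 genes, and S100a10, Ahnak and Anxa1 still lay below every fat library there.

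A list of 23 other calcium-binding genes, mostly EF-hand genes but also Calr, a calcium-binding chaperone, and S100pbp, named for binding an S100 protein, had 22 tested members, of which 3 rose, 2 fell and 17 did not pass (median log2 difference 0.22). These counts lie near the shares of all genes, 8.97% higher and 10.5% lower. Efhd2, an actin-bundling EF-hand gene, rose by 1.87 ± 0.29, Calr by 1.21 ± 0.29 and Myl12a, a myosin light chain gene, by 1.03 ± 0.24 (log2, SE, edgeR adjusted p = 0.00273, 0.0185 and 0.0189). Calm2, 1 of the 3 calmodulin genes, fell by 1.26 ± 0.25 (edgeR adjusted p = 0.00855), and Chp2, a calcineurin-like EF-hand gene, averaged 144 ± 22.3 CPM in fat and had no islet counts, at least 232-fold lower with the floor of 3 counts per library. Chp2 passed the filter only through its fat counts, so its call was favoured by the filter. The number that rose was 1 without fat library 2, 4 or 6, where Calr and Myl12a missed the threshold (edgeR adjusted p = 0.0758 to 0.125), 6 without islet library 6 and 5 in DESeq2. The share of all genes called higher moved in the same settings. It was 3.92%, 3.66% and 4.21% without fat library 2, 4 or 6, 12.7% without islet library 6 and 11.8% in DESeq2. Reads of Myl12a can be shared with its close relative Myl12b. Of the 8 immediate early genes listed, 5 fell (Fosb, Fos, Ier3, Junb and, named after its values were seen, Ier2) and 3 did not pass, and all 8 heat shock genes rose. With the replicate block 6 heat shock genes rose, as Dnajb1 and Hspa8 missed the threshold (edgeR adjusted p = 0.0556 and 0.0518), and Egr1 fell too (0.0443). Without fat library 2, 5 heat shock genes rose.

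Among 4401 well-expressed genes (average log2 CPM of at least 5), the pattern over the 6 libraries most like that of S100a6 was found in Igfbp4, an insulin-like growth factor binding protein gene, Mgl2, a galactose lectin gene of macrophages, and Thbd, which encodes thrombomodulin. Likeness was the root mean square distance of log2(CPM + 0.5), each gene centred on its mean over the libraries, and it was 0.39, 0.44 and 0.51. Igfbp4 ranged from 518 to 638 CPM in fat, with islet libraries 2, 4 and 6 at 11.3, 37.3 and 12.0 CPM. Library 4 was its highest islet library, as for S100a6, but the choice by likeness over the same 6 libraries favours such a match. The nearest tested protein-coding gene outside the family, Chtop, 1536 bases from S100a1, had a log2 difference of -0.38 ± 0.25 and did not pass (edgeR adjusted p = 0.333).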

How the data were processed

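The authors deposited 1 table of raw read counts per gene for 6 libraries, matched to samples by title. Per the labels' protocols, libraries were made with the SMARTer Stranded Total RNA-Seq Pico v2 kit. Per the submitters' processing notes, STAR, featureCounts and Subread 1.6.4 were used with GRCm38. The sources used here do not give which annotation or strand mode featureCounts ran with, so reads of overlapping genes may be misassigned.

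Counts were tested with edgeR 4.0.16 (R 4.3.3; filterByExpr, TMM factors, robust quasi-likelihood fit) over 12152 genes, with Benjamini-Hochberg adjustment and a threshold of 0.05. Standard errors and 95% intervals come from that fit. DESeq2 1.42.0, limma 3.58.1 (voom), RLE and upper-quartile factors, other filters, left-out libraries, and fits without markers of other cell types or without heat shock and immediate early genes were alternatives. CPM use TMM-scaled library sizes, and exon lengths are unions of GENCODE M21 exons. On simulated data with 12152 genes, the fit for islet minus fat recovered 1% of 100 genes changed 2-fold and 49% of 100 changed 4-fold, and called 3 unchanged genes.

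The S100 members and all gene lists were chosen with earlier results of these data known. Named genes were all members, up to 4 per direction of each functional list by adjusted p, the 3 most abundant of each marker list, and the 3 patterns most like the called member with the smallest adjusted p. The series' design text calls the tissues autologous, so libraries with the same number were read as paired by origin. Their deviations from the tissue means correlated at 0.0441, 0.0733 and 0.00214 across genes for numbers 2, 4 and 6, and the block on that number was an alternative. Some marker genes, and 1 marker list that rests on them, are not reported here.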

Additional observations from a re-analysis of the deposited data

How the results depend on the processing

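The count of S100 members lower in islet was 3 of 5 tested, where 10.46% of all genes tested were called lower. It was 4 of 5 with the replicate number as a block (S100a1 was added), with 9.08% of all genes. Without a filter on low counts it was 4 of 8, with 8.24% of all genes, in the fit whose p-values are not relied on. It was 3 of 5 under RLE or upper-quartile factors, DESeq2, limma voom and a filter at 1 CPM. There 10.85%, 10.76%, 14.32%, 12.45% and 11.69% of all genes were called lower. Leaving out 1 library at a time gave 2 to 4, with 2 without any 1 of the fat libraries and 4 without islet library 4. The share of all genes called lower was 4.71% to 5.96% without a fat library and 11.67% without islet library 4. The count of members higher was 0 under each of these. No member difference changed direction. S100a6 and S100a10 passed under every setting run, and S100a11 under none. The block changed no other call of a member, and among the functional list genes named it moved Anxa2, Emb, Dnajb1, Hspa8 and Egr1 across the threshold. Over all genes, leaving out 1 library gave 466 to 1649 genes higher and 593 to 2022 lower, and leaving out islet libraries 2 and 4 gave 2064 higher and 2916 lower. With 3 libraries per tissue, simulated 2-fold changes were almost never called, so the missed calls of S100a1 and S100a11 do not show equal levels, and at 0 to 14 counts per library S100a4, S100a8 and S100a9 are limited by depth.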
